A study of Mus musculus with 6 samples.

Results

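Natural killer (NK) cells that carry both CD27 and CD11b were compared with the midpoint between the subsets on either side of them. The quantity, called here the midpoint difference, was the mean log2 expression of the 2 CD27+CD11b+ arrays minus the average of the CD27+CD11b- mean and the CD27-CD11b+ mean. It is 0 for a gene that changes by the same log2 amount in both steps. A positive value marks a gene that peaks in CD27+CD11b+ cells, rises mostly in the first step or falls mostly in the second. A negative value marks a gene that dips there, falls mostly in the first step or rises mostly in the second. No measured value chose the genes: all 34945 probe sets with 1 gene symbol, of 45101 on the array, entered as 18193 genes, each represented by its brightest probe set.

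The cells came from spleens of RAG-/- mice, which cannot assemble antigen receptor genes and so have no mature T or B cells. NK1.1+ cells were sorted by flow cytometry with antibodies to NK1.1, CD27 and CD11b into 3 gates. These were CD27+CD11b-, both markers (CD27+CD11b+), and CD27-CD11b+, with no treatment named, and each subset was measured on 2 of the 6 Affymetrix mouse genome arrays. The design text calls the 2 samples of a subset independent but does not say whether they came from separate animals, and the age of the mice and any pooling were not stated in what was read here. The spread behind each p-value is that between these samples and may be technical.

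NK cells are innate lymphocytes that kill infected or transformed cells with granule proteases and secrete interferon gamma. In the mouse they are commonly ordered by the gain of CD11b, an integrin alpha chain, and then the loss of CD27, which relays survival signals from its ligand CD70. Along this order NK cells are known to lose features shared with other innate lymphoid cells and with memory-type lymphocytes, and to gain cytotoxic and circulating features under the transcription factors T-bet, Zeb2 and Blimp-1. The CD27+CD11b+ cells stand in the middle of this order, so their place between the outer subsets tells with which of the 2 steps a transcript moves.

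The medians of the 6 arrays were 5.26 to 5.36 (log2). Expression in the text is in log2 units, with means ± SD over n = 2 arrays. Genes below 6.23, the level under which 95 percent of genes of other tissues lay, are called near background, and 9044 genes were above it in at least 1 subset. The defining NK cell genes were high in all 6 arrays: Ncr1, the activating receptor NKp46, ranged from 9.84 to 10.95, and Eomes, an NK lineage T-box factor, from 12.04 to 12.49. Of the 13 NK markers measured, 13 were above background and 0 had an unadjusted p under 0.05 for the midpoint difference. The T cell receptor subunit Cd3e lay at 6.02 to 6.44, on both sides of the background level, and the B cell receptor subunit Cd79a at 4.83 to 5.23, near background. Other listed markers were higher: in CD27+CD11b- the T cell markers Cd28 and Thy1 had means of 10.81 and 10.25 and the B cell marker Cd22 8.07. Above background in at least 1 subset were 5 of 11 T cell, 2 of 12 B cell and 19 of 23 monocyte and macrophage markers.

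The sort description of CD27-CD11b+ replicate 1 names the CD27+CD11b- gate, against its title, and the array was grouped by the title. Its Itgam value, 9.93, and Cd27 value, 6.96, were near those of CD27-CD11b+ replicate 2, 9.44 and 6.47. The midpoint differences without it are given where results rest on it. A group of 3 unnamed probe sets also divided the arrays across the subsets, at 12.57 to 12.81 in the replicate numbered 2 of both CD27+ subsets and in the first CD27-CD11b+ array (the on arrays) and at 4.33 to 4.47 in the other 3 (the off arrays). Each side holds 1 array of every subset, so the midpoint difference can be read within both sides.

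The sorting markers were read against the midpoint first, and both lay above it. Itgam, which encodes CD11b, was 6.37 and 5.88 in the CD27+CD11b- arrays, 8.69 and 8.01 in CD27+CD11b+ and 9.93 and 9.44 in CD27-CD11b+, so 62.4% of its outer difference was reached at CD27+CD11b+ and its midpoint difference was 0.44 (SE 0.24). Cd27 was 8.78 and 8.03, then 8.92 and 8.21, then 6.96 and 6.47, a midpoint difference of 1.01 (SE 0.28). The sort sets both patterns, so they are a check of the labels and not a result.

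Kcnj8, the pore-forming protein of a potassium channel that ATP closes, was the gene farthest from an even change. It stood at 6.20 and 6.13 in the CD27+CD11b- arrays, at 6.72 and 6.48 in CD27+CD11b+, and at 10.66 and 10.43 in CD27-CD11b+. The first 4 values lay within 0.6 log2 units of each other, and both CD27-CD11b+ arrays lay far above them. Kcnj8 was near background in CD27+CD11b- and little above the 6.23 level in CD27+CD11b+. RMA compresses differences there, so the first step of Kcnj8 cannot be read closely. Its midpoint difference was -1.75 (SE 0.14, 95% interval -2.08 to -1.43, limma adjusted p = 0.0314), and it was the 1 gene of 18193 to pass an adjusted p of 0.05, or 0.0055% of those tested. None passed on the positive side. At an unadjusted p under 0.05 there were 547 genes, 3.01%, of which 210 lay above the midpoint (1.15%) and 337 below (1.85%), which is fewer in all than 5% of the genes tested.

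Myb, a transcription factor needed by blood progenitors and kept in memory-type lymphocytes, gave the largest positive difference. Its values were 9.58 and 9.85 in CD27+CD11b-, 9.78 and 9.92 in CD27+CD11b+, and 7.04 and 6.89 in CD27-CD11b+. The CD27+CD11b+ arrays overlapped the first pair, and both CD27-CD11b+ arrays stood apart. The midpoint difference was 1.51 (SE 0.14, 95% interval 1.18 to 1.84), just past the threshold at a limma adjusted p of 0.0501. The probe set's name marks possible matches to other transcripts. Another Myb probe set, the one of largest variance, gave 1.60, but at a limma adjusted p of 0.9998 in the fit that used such probe sets.

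Both genes passed when the on and off division entered the fit as a block, at a limma adjusted p of 0.0119 each, and were then the 2 genes called (0.011%). That block was chosen with these data known, so its p-values may be too small. Without CD27-CD11b+ replicate 1, the array with the conflicting label, the midpoint difference was -1.69 for Kcnj8 and 1.55 for Myb, and the limma adjusted p was 0.260 for both. With any of the 6 arrays left out Kcnj8 lay between -1.87 and -1.63 and Myb between 1.44 and 1.58, and the adjusted p between 0.0652 and 0.592 for either gene, so neither was called with 5 arrays.

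The 250 bases upstream of the start of each gene, from RefSeq on GRCm38.p6, are printed because these genes carry the clearest late switch, one up and one down. They were searched on both strands for TCACACC, a T-box motif, and for CACCTG, an E-box of the kind that ZEB factors bind. Capitals mark a match. The Kcnj8 stretch is chr6:142571615-142571864 on the minus strand and the Myb stretch chr10:21160985-21161234 on the minus strand, both written 5′ to 3′.
Kcnj8: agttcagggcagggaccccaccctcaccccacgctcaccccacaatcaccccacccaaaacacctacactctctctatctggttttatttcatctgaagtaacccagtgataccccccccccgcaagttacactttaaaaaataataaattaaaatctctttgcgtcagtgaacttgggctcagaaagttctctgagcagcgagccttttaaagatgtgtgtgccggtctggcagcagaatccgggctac
Myb: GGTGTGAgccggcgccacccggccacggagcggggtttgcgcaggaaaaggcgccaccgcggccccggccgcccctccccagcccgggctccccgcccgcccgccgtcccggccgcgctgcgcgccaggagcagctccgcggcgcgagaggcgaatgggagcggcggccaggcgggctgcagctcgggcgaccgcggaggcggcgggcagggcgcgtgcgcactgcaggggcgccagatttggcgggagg
The Kcnj8 stretch held 0 matches at 49.2% G and C. The Myb stretch held 1, the T-box letters on the other strand at its far end, 250 to 244 bases upstream, in a stretch of 81.2% G and C against a median of 52.4% over all promoters. Of 32851 promoters in the table, 3.33% hold TCACACC and 17.22% hold CACCTG. A match describes letters only, and no match says only that these letters are not in the stretch.

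Genes that differed between the 2 outer subsets moved more in the second step than in the first. The outer comparison called 617 genes in limma (3.39%): 408 were higher in CD27-CD11b+ (2.24%) and 209 were lower there (1.15%), and after cyclic loess scaling 260 were higher and 270 lower. With equal numbers of arrays and uncorrelated errors, the outer and the midpoint contrast are independent apart from a shared variance estimate. By replicate number, however, deviations from the subset mean correlated at 0.62 between the 2 CD27+ subsets, and at -0.25 and -0.14 between these and CD27-CD11b+. Selection on the outer contrast may therefore favour late genes, and how far it did so was not tested. With an outer array left out the 2 contrasts are not independent either. At CD27+CD11b+ the median gene had covered 35.5% of its outer log2 difference (quartiles 21.8% and 48.3%). In 192 genes the share was below 25%, in 388 between 25% and 75%, and in 37 above 75%.

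Genes on the way up were late, with a median share below 50% in every setting tried. Of the 408 higher in CD27-CD11b+, 344 lay below the midpoint at CD27+CD11b+ and 64 above, against 5848 of the 9044 genes above background that lay below. Their median share was 34.0%, or 37.8% by the off arrays and 30.0% by the on arrays. Without CD27-CD11b+ replicate 1 the outer comparison called 41 such genes, 29 of them below the midpoint, at a median share of 38.3%. The median over each array left out ranged from 30.3% to 41.6%. The mean of all genes above background was 8.64 in CD27-CD11b+ replicate 1 and 8.42 to 8.50 in the other 5 arrays, a shift that lowers midpoint differences, and its part in the result was not tested. After cyclic loess scaling between arrays, 202 of 260 such genes lay below the midpoint, at a median share of 35.5%.

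Genes on the way down were less uniform, and their timing depended on the scale and on single arrays. Of the 209 lower in CD27-CD11b+, 132 lay above the midpoint and 77 below, at a median share of 41.9%. Of them 32 had covered over 75% of the way at CD27+CD11b+, against 5 of the 408 that were higher. Among genes above background in all 3 subsets this was 7 of 103 that were lower and 4 of 299 that were higher, at median shares of 33.0% and 36.4%. The median share on linear values was 52.6% for the 209 genes and 25.4% for the 408. On the log2 scale the median share of the genes that were lower ranged from 29.9% to 56.0% with 1 array left out, and was 49.8% without CD27-CD11b+ replicate 1.

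**Figure D1:**
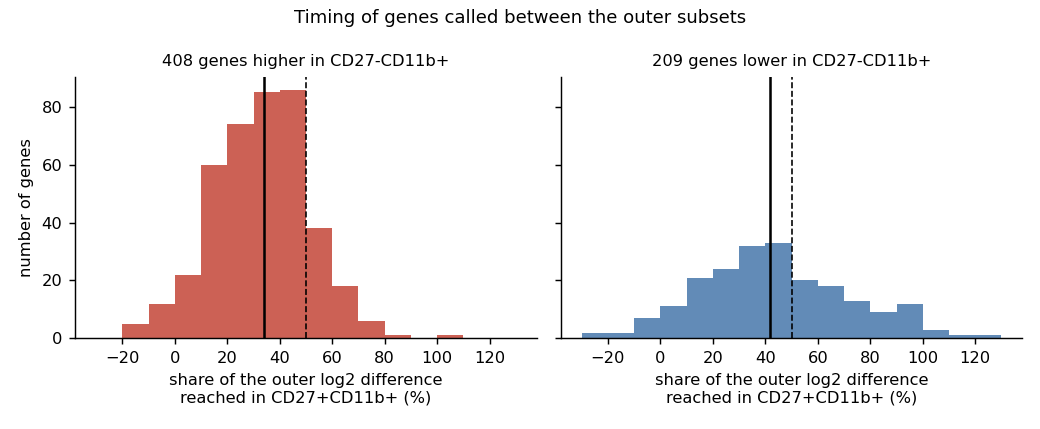
Share of the outer log2 difference already reached in CD27+CD11b+ cells (x axis, %), as a histogram over the 408 genes higher and the 209 genes lower in CD27-CD11b+ than in CD27+CD11b- (limma adjusted p under 0.05). The solid line is the median, 34.0% and 41.9%, and the dashed line marks an even change at 50%; the right panel has 32 genes above 75%, of which 7 stayed above background in all 3 subsets.

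**Figure D2:**
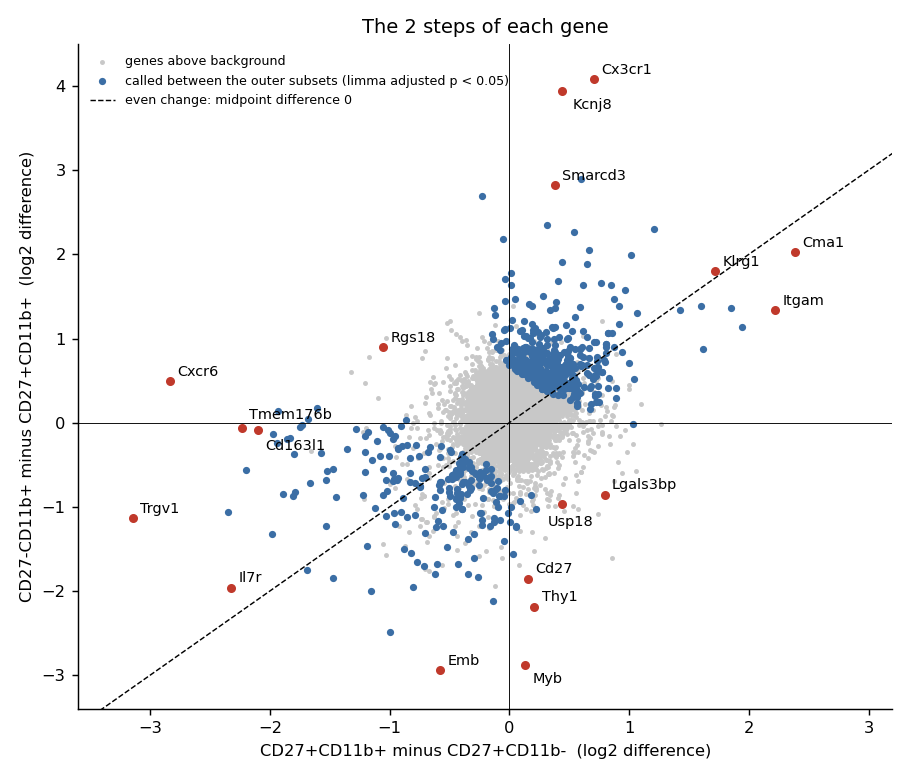
Each point is a gene, placed by its log2 difference in the first step (x axis) and the second step (y axis). Grey points are genes above background. Blue points were called between the outer subsets, some of them near background in all 3 subsets, and red points are named genes. Genes with an even change lie on the dashed line, late switches near the vertical axis (Kcnj8, Cx3cr1, Myb, Emb, Thy1) and early falls near the left arm of the horizontal axis (Cd163l1, Tmem176b, Cxcr6).

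A gene was described as a peak or dip when its 2 steps had opposite signs and the smaller was at least 0.5 times the larger, and otherwise as early or late by its larger step. Among the 88 genes above background at an unadjusted p under 0.01, 36 were late rises, 23 late falls, 15 early falls, 0 early rises, 7 peaks and 7 dips. Over all 9044 genes above background, late rises were the commonest shape too, at 3875 genes, against 1423 early rises, 1329 late falls and 1084 early falls. The absence of early rises from the 88 is a count and was not tested against that background.

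The largest late rises after Kcnj8 were Cx3cr1, Top1mt, Smarcd3, Gpx8, Rhpn1 and Cym. Cx3cr1, the receptor for the chemokine fractalkine that marks circulating effector lymphocytes, was 6.65 and 6.66 in CD27+CD11b-, 7.46 and 7.26 in CD27+CD11b+, and 11.94 and 10.95 in CD27-CD11b+, for a midpoint difference of -1.69 (SE 0.25). Its 3 subsets did not overlap, and 14.7% of the outer difference was reached at CD27+CD11b+. Smarcd3, a subunit of the BAF chromatin remodelling complex, was 5.33 and 4.76, then 5.49 and 5.35, then 8.30 and 8.19, a midpoint difference of -1.22 (SE 0.18). It was near background in both CD27+ subsets and well above it in both CD27-CD11b+ arrays. Top1mt, the mitochondrial DNA topoisomerase, was 5.99 and 6.10, then 5.85 and 5.79, then 8.99 and 8.04, at -1.46 (SE 0.24).

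Gpx8, of the glutathione peroxidase family in the endoplasmic reticulum, had a midpoint difference of -1.15 (SE 0.17), Rhpn1 -1.11 (SE 0.26), and Cym, an aspartic protease, -1.02 (SE 0.26). All 3 were near background in both CD27+ subsets, as were Smarcd3 and Top1mt. RMA compresses differences there, so the share of these genes at CD27+CD11b+ cannot be read closely. Each of the 7 late rises from Kcnj8 to Cym rose between the outer subsets in limma (adjusted p from 6.26e-05 for Kcnj8 to 0.0115 for Rhpn1), and their midpoint differences other than that of Kcnj8 did not pass. Without CD27-CD11b+ replicate 1 the differences were -1.44 for Cx3cr1, -1.19 for Smarcd3, -1.22 for Top1mt, -1.05 for Gpx8, -0.98 for Rhpn1 and -0.78 for Cym.

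Of the 408 genes that rose between the outer subsets, 17 were no higher in CD27+CD11b+ than in CD27+CD11b-. Klf3, a Krueppel-like repressor, was the brightest of them, at 10.37 ± 0.24, 10.34 ± 0.10 and 11.31 ± 0.06 in maturation order. Others were Mospd1 at 7.65, 7.58 and 8.53, and the ubiquitin ligase Rnft1 at 6.80, 6.76 and 7.86. There were also 4 zinc finger genes, Zfp12, Zfp748, Zfp874b and Zfp930, the last near background in all 3 subsets. Zfp748 (5.70 and 5.66) and Zfp874b (5.56 and 5.42) were near background in both CD27+ subsets, as were most of the 17. The first step of such genes cannot be read closely. These names were chosen after their values were seen.

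After Myb, the late falls by size were Thy1, Emb, the sorting marker Cd27 and Kbtbd11. Emb, embigin, an immunoglobulin family glycoprotein that escorts lactate transporters, was 11.30 and 11.51 in CD27+CD11b-, 10.94 and 10.72 in CD27+CD11b+, and 7.78 and 8.0 in CD27-CD11b+. Its midpoint difference was 1.18 (SE 0.14), with 16.4% of the fall in the first step. Thy1, the surface glycoprotein CD90 of T cells and innate lymphocytes, was 10.55 and 9.95, then 10.70 and 10.22, then 8.20 and 8.35, at 1.20 (SE 0.21). In both genes the CD27-CD11b+ arrays lay below all 4 others, and for Thy1 the 2 CD27+ subsets overlapped. Kbtbd11, a Kelch and BTB domain protein, was 12.42 and 12.20, then 12.32 and 12.02, then 10.09 and 10, at 0.99 (SE 0.15).

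Myb, Emb, Thy1 and Kbtbd11 all fell in the second step in limma (adjusted p from 0.000759 to 0.0162) and 0 of them passed in the first. Crtam, an immunoglobulin family receptor for Cadm1, was 9.52 and 9.55, then 9.21 and 9.26, then 7.61 and 7.64, at 0.66 (SE 0.12). Cxcr3, a receptor for interferon-induced chemokines, was 11.40 ± 0.28, 11.14 ± 0.36 and 9.30 ± 0.25, at 0.79 (SE 0.20), and Ltb, the membrane-anchored lymphotoxin chain, 11.06 ± 0.12, 10.07 ± 0.60 and 7.58 ± 0.03, at 0.75 (SE 0.22). Cd28, the co-stimulatory receptor, was 10.81 ± 0.34, 10.47 ± 0.58 and 8.68 ± 0.15, at 0.73 (SE 0.24). Without CD27-CD11b+ replicate 1 these midpoint differences were 1.12 for Emb, 1.16 for Thy1, 1.01 for Kbtbd11, 0.65 for Crtam, 0.70 for Cxcr3, 0.74 for Ltb and 0.67 for Cd28.

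Among the 209 genes that fell between the outer subsets, 11 were no lower in CD27+CD11b+ than in CD27+CD11b-. Besides Myb, Thy1, Cd27, Ccr2 and Ifit3 they were Socs3, the feedback inhibitor of cytokine signalling, at 12.12, 12.18 and 10.94 in maturation order, Ctla2a, a cysteine protease inhibitor, at 11.74, 11.75 and 10.58, Sidt1 at 8.43, 8.48 and 7.25, Kifc3 at 7.62, 7.70 and 6.77, Pdcd1lg2, the PD-1 ligand PD-L2, at 6.81, 6.84 and 5.28, and Shh at 6.57, 6.75 and 5.89. These too were picked after their values were seen.

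**Figure D3:**
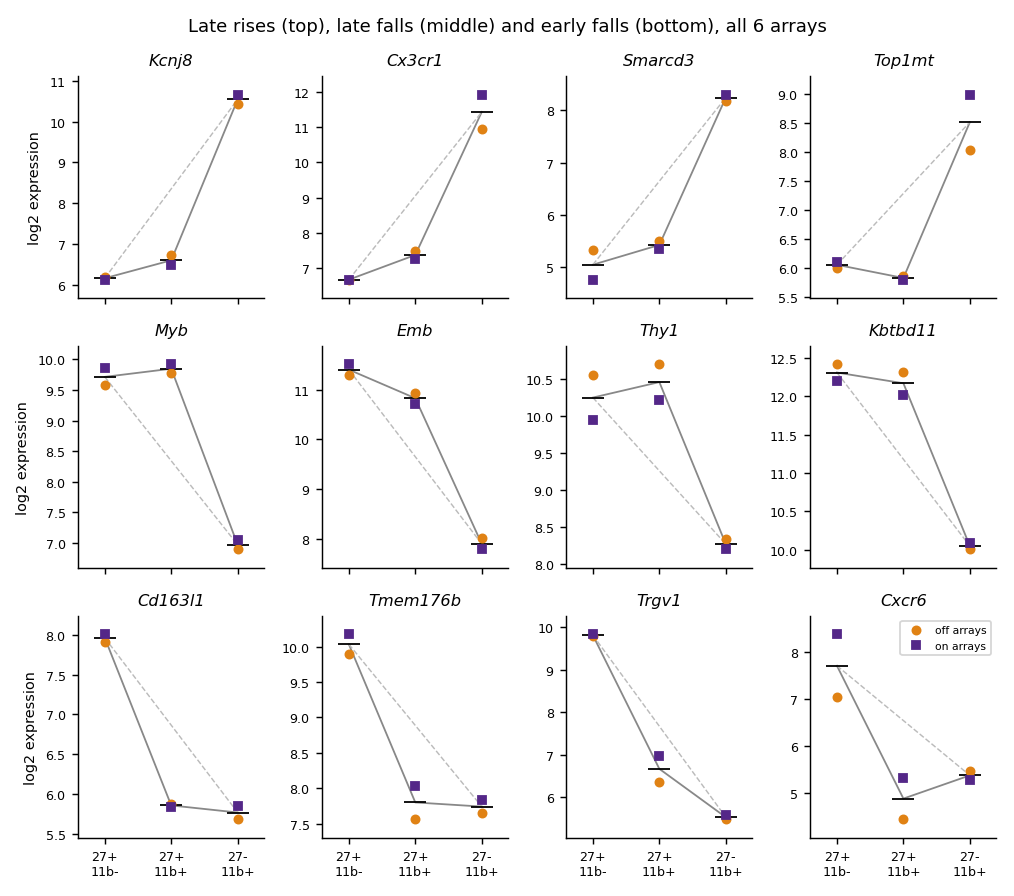
Log2 expression (y axis) in all 6 arrays for 4 late rises, 4 late falls and 4 early falls, by subset (x axis, written as 27 and 11b). Circles are the off and squares the on arrays, bars are subset means and the dashed line joins the outer means, so that the distance of the middle bar from it is the midpoint difference, from -1.75 for Kcnj8 to 1.51 for Myb.

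All 12 of the largest early switches were falls, and several are genes of other innate lymphoid cells or of unconventional T cells. Cd163l1, a scavenger receptor of gamma delta T cells, was 7.91 and 8.0 in CD27+CD11b-, 5.88 and 5.85 in CD27+CD11b+, and 5.86 and 5.69 in CD27-CD11b+, a midpoint difference of -1.0 (SE 0.13). Tmem176b, a membrane protein of innate lymphoid and dendritic cells, was 9.89 and 10.18, then 7.56 and 8.04, then 7.83 and 7.65, at -1.09 (SE 0.17), and its neighbour Tmem176a gave -0.85 (SE 0.15). For all 3 genes the CD27+CD11b- arrays stood alone, and over 95% of the outer difference was reached at CD27+CD11b+. Cd163l1 lay near background from CD27+CD11b+ on.

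Cxcr6, a receptor that keeps lymphocytes in liver and tissue, had the largest early difference. It was 7.04 and 8.39 in CD27+CD11b-, 4.43 and 5.32 in CD27+CD11b+, and 5.27 and 5.47 in CD27-CD11b+, at -1.67 (SE 0.37). The latter 2 subsets overlapped near background, and the CD27+CD11b- arrays differed from each other by more than 1 log2 unit. Tnfrsf25, a death domain receptor, was 7.73 ± 0.51, 5.80 ± 0.17 and 5.94 ± 0.09, at -1.04 (SE 0.20). Cd200r1, an inhibitory receptor, was 7.09 ± 0.06, 5.48 ± 0.02 and 5.65 ± 0.23, at -0.89 (SE 0.14). Tnfrsf25 and Cd200r1 were near background from CD27+CD11b+ on, so their second step cannot be read closely.

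Trgv1, a gamma chain variable segment, was 9.78 and 9.83, then 6.35 and 6.97, then 5.57 and 5.48, with 73.4% of its outer difference at CD27+CD11b+ and a midpoint difference of -1.0 (SE 0.18). The second step alone did not pass. Trgv4, on a probe set that may match other transcripts, gave -0.92 (SE 0.15). Bcl11b, a T cell and innate lymphoid commitment factor, was 8.80 ± 0.20, 7.48 ± 0.58 and 8.09 ± 0.28, at -0.96 (SE 0.24), and was the early switch with the highest expression in CD27-CD11b+. Ckb, the brain-type creatine kinase, gave -0.86 (SE 0.16), Psd2 -0.85 (SE 0.20) and Phtf2 -0.84 (SE 0.20). Trgv4 and Psd2 were near background from CD27+CD11b+ on, and Trgv1 in CD27-CD11b+, so their second step cannot be read closely.

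Of the 12, Cd163l1, Cd200r1, Tmem176b, Tmem176a, Tnfrsf25, Trgv1, Trgv4, Ckb and Psd2 fell in the first step in limma (adjusted p from 0.00484 to 0.0376), a step with 16 genes lower over all (0.0879%), and Cxcr6, Bcl11b and Phtf2 did not pass there. None of the 12 midpoint differences passed. With each of the 6 arrays left out in turn all 12 kept a negative difference. Their choice at an unadjusted p under 0.01 on the same arrays made that likely. Without CD27-CD11b+ replicate 1 the 12 differences ranged from -1.71 for Cxcr6 to -0.76 for Tmem176a.

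The 5 genes that rose between the outer subsets with over 75% of the way covered at CD27+CD11b+ were Lamtor2, a subunit of the lysosomal Ragulator complex, at 7.87, 8.91 and 8.89 in maturation order, Get3, a factor for membrane insertion, at 6.85, 7.52 and 7.68, the calcium-binding protein S100a6 at 9.54, 10.29 and 10.54, Oplah, of glutathione turnover, at 6.53, 7.21 and 7.44, and Gpr146 at 5.76, 6.65 and 6.95. Lamtor2 had a midpoint difference of 0.52 and the others from 0.23 to 0.30. They were chosen after their values were seen, and none passed at the midpoint.

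There were 6 genes called in both steps in limma (0.033%). Passing both steps requires a large change in each, so midpoint differences near 0 follow in part from that choice, and the values are a description. Klrg1, an inhibitory receptor for cadherins, was 9.57 and 9.85, then 11.47 and 11.39, then 13.37 and 13.08, with a midpoint difference of -0.04 (95% interval -0.38 to 0.30). Cma1, a chymase, gave 0.18 (-0.22 to 0.59) and Cmklr1, the chemerin receptor, 0.04 (-0.29 to 0.37). Among those that fell, Il7r, the interleukin-7 receptor alpha chain, was 11.47 and 11.70, then 9.39 and 9.13, then 7.38 and 7.22, at -0.18 (-0.52 to 0.16), and Cd160 gave 0.14 (-0.16 to 0.44). Acpp, an acid phosphatase, was the least even of the 6 at -0.33 (-0.66 to -0.0042), an interval that leaves out 0.

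Further genes known from NK cell maturation were these. Tbx21, which encodes T-bet, gave -0.03 (95% interval -0.36 to 0.31), with 47.3% of its outer difference reached at CD27+CD11b+. Zeb2 gave -0.23 (-0.54 to 0.07) at 39.9%, Prdm1, which encodes Blimp-1, -0.30 (-0.66 to 0.06) at 37.3%, and S1pr5, a receptor for exit from lymphoid organs, -0.31 (-0.65 to 0.04) at 38.0%. These 3 rose in the second step in limma (adjusted p = 0.0165, 0.0254 and 0.0161) and did not pass in the first, with shares near the 34.0% median of the genes on the way up. Prf1, perforin, gave 0.09 (-0.24 to 0.42) at 56.4%, and Gzmb, granzyme B, 0.37 (-0.05 to 0.79) at 64.8%. The interval of each includes 0, which does not show that the change was even. These genes were named after their values were seen.

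Genes highest in CD27+CD11b+ cells differed little and came from varied functions. Both CD27+CD11b+ arrays lay above all 4 others in 538 genes (2.96%) and below all 4 in 770 (4.23%). After cyclic loess scaling these counts were 710 and 753. Among genes above background whose 2 steps made a peak, 79 of 444 had both arrays above all others, and among dips 250 of 889 had both below. The lean toward dips goes with the tilt of all genes above background, of which 35.3% had a positive midpoint difference. No peak or dip passed over all genes.

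Itgax, the integrin chain CD11c, had the smallest SE of the 12 peaks chosen by their gap to the nearer outer mean. It was 11.17 and 11.11 in CD27+CD11b-, 11.67 and 11.70 in CD27+CD11b+, and 11.27 and 11.17 in CD27-CD11b+, a midpoint difference of 0.51 (SE 0.12, off 0.50, on 0.52). Sema4c, a semaphorin, was 7.83 and 8.15, then 8.58 and 8.59, then 7.90 and 8.10, at 0.59 (SE 0.15). In both genes the middle arrays stood above all others, by nearly the same amount on each side of the array division. Lgals3bp, a secreted galectin ligand, was 8.53 and 8.65, then 9.64 and 9.13, then 8.69 and 8.37, at 0.83 (SE 0.18), with 1.19 by the off arrays and 0.47 by the on arrays.

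Gzmk, granzyme K, a protease of early memory-type killer cells, was 7.67 and 8.22, then 9.26 and 8.38, then 7.93 and 8.32, at 0.78 (SE 0.27). The lower of its CD27+CD11b+ arrays exceeded the highest other array by less than 0.1 log2 units. Nrarp, a Notch target that restrains Notch signalling, was 10.25 and 10.94, then 11.30 and 11.71, then 10.96 and 11.11, at 0.69 (SE 0.21). Eef2, the ribosomal translocation factor, was 11.53 and 11.42, then 12.29 and 11.88, then 11.43 and 11.69, at 0.57 (SE 0.16). Dcaf5 (0.77), AI854703 (0.70), Hdac11, a histone deacetylase (0.59), Nop58, a nucleolar protein (0.47), Hmox1, heme oxygenase (0.42) and Ssc4d (0.40) were the other peaks. Hmox1 was near background in both outer subsets and at 6.25 in CD27+CD11b+, so its peak lies at the background level. The other Dcaf5 probe set above background gave -0.18, so the Dcaf5 peak rests on 1 probe set.

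Klrb1b, an inhibitory NKR-P1 receptor that binds Clr-b, was the dip best backed by other probe sets. Its brightest probe set was 10.92 and 10.84 in CD27+CD11b-, 10.24 and 10.47 in CD27+CD11b+, and 10.94 and 11.06 in CD27-CD11b+, a midpoint difference of -0.59 (SE 0.13). Another 3 probe sets above background gave -0.69, -0.86 and -1.24. The NKR-P1 genes are close copies of each other, so signal of neighbouring members on these probes cannot be told apart. Rgs18, a regulator of G protein signalling, was 6.24 and 6.78, then 5.11 and 5.80, then 6.58 and 6.13, at -0.98 (SE 0.24), near background in the middle subset.

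Fyttd1, an mRNA export adaptor, was 9.27 and 9.25, then 8.86 and 8.66, then 9.33 and 9.30, at -0.53 (SE 0.13), and Chic1 was 6.97 and 7.0, then 6.18 and 6.47, then 6.72 and 6.88, at -0.57 (SE 0.14). In both the outer arrays were close together and the CD27+CD11b+ arrays lower. The remaining dips ran from -0.50 for Fubp3 to -0.98 for Sox4, with Zmat1, Dpy19l3, Hic1, Cdk2, a cell cycle kinase, and Ltbp3 between them. Sox4 was near background in CD27+CD11b+, at 5.75. Sox4 and Hivep3 (-0.77) each had another probe set above background in the opposite direction, at 0.08 and 0.19. Without CD27-CD11b+ replicate 1 the peaks given in full ran from 0.51 for Eef2 to 0.91 for Lgals3bp, and Klrb1b was -0.62. The sign of the 24 peaks and dips named could not change there. Each was chosen with both CD27+CD11b+ arrays outside all others.

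**Figure D4:**
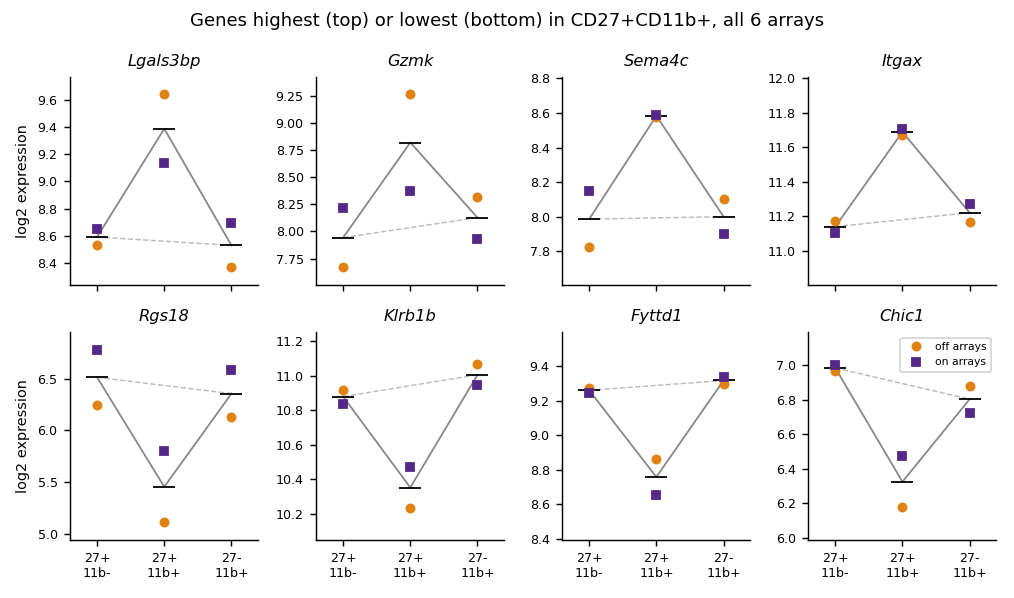
Log2 expression (y axis) in all 6 arrays for 4 genes highest and 4 lowest in CD27+CD11b+ cells, by subset (x axis). Symbols are as in the plot of switches; Itgax and Fyttd1 have outer arrays that nearly coincide, while in Gzmk and Rgs18 the arrays of a subset lie far apart.

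Type I interferon response genes, which block viral replication, were the function list with the most members above the midpoint at an unadjusted p under 0.05. Of 32 measured, 26 had a positive difference and the median was 0.16, against a median of -0.02 and 44.0% positive over all genes. At an unadjusted p under 0.05, 7 lay above and 1 below, against 1.15% and 1.85% of all genes, and 0 passed after adjustment. Usp18, the deubiquitinase-like brake on the interferon receptor, was 8.04 and 8.15 in CD27+CD11b-, 8.53 and 8.53 in CD27+CD11b+, and 7.68 and 7.45 in CD27-CD11b+, at 0.70 (SE 0.13). Its 3 subsets did not overlap, with CD27+CD11b+ the highest.

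Oasl1, an inhibitor of Irf7 translation, was 6.81 and 6.89, then 7.30 and 7.07, then 6.28 and 6.36, at 0.60 (SE 0.13), and its relative Oasl2 gave 0.66 (SE 0.20) from levels near background. Irf7, the factor that amplifies interferon production, was 8.57 and 8.74, then 9.29 and 9.17, then 9.18 and 8.60, at 0.46 (SE 0.18). Ifit1, which binds foreign capped RNA, was 6.93 and 7.28, then 6.70 and 7.06, then 5.72 and 5.60, at 0.49 (SE 0.16), and Ifit3, its partner, gave 0.51 (SE 0.18). The shapes differ: Usp18 and Oasl1 were above both neighbours, while Ifit1 and Ifit3 were level across the CD27+ subsets and fell between the outer subsets. Stat2, of the interferon receptor pathway, was the member below, at -0.38 (SE 0.14), and was near background in CD27+CD11b+. Off arrays put the list's median at 0.24 and on arrays at 0.13, and it was 0.19 without CD27-CD11b+ replicate 1, and 0.17 to 0.19 with any array left out.

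The 250 bases upstream of Ifit1 and Ifit3 are printed because both hold the half-site GAAA repeated after a gap of 2 bases, to which interferon regulatory factors bind. Ifit1 is chr19:34640639-34640888 and Ifit3 chr19:34583279-34583528, both on the plus strand of GRCm38.p6 in RefSeq, with matches, which lie on the other strand, in capitals.
Ifit1: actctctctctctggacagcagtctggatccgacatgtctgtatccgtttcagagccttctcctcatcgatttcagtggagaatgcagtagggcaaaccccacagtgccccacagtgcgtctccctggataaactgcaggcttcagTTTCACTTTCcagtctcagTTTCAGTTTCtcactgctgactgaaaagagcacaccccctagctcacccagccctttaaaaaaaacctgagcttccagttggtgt
Ifit3: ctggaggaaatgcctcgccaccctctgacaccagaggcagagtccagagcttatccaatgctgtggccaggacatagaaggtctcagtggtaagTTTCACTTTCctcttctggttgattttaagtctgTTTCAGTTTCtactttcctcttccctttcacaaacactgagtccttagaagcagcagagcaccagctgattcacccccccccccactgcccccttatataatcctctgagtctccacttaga
The matches lie 104 to 95 and 85 to 76 bases upstream in Ifit1, and 156 to 147 and 122 to 113 bases upstream in Ifit3, and the same 2 decamers occur in both. Of the 22 list members with a promoter in the table, 8 held a match in at least 1 promoter. Over all promoters 2.98% do, a share counted by promoter and not by gene, so the 2 shares are not in like units.

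Transcription factors split in both directions. Of 63 measured, 5 lay above and 8 below at an unadjusted p under 0.05, against 1.15% and 1.85% of all genes, and the median was -0.03. Above, beside Myb and Irf7, were Myc, the growth regulator, at 8.79 ± 0.34, 9.09 ± 0.35 and 7.72 ± 0.44 (0.84, SE 0.23), Aff3 at 9.71 ± 0.05, 9.36 ± 0.05 and 7.98 ± 0.01 (0.52, SE 0.12), and Klf10 (0.30, SE 0.12). Below, beside Bcl11b, Sox4 and Klf3, were Rora, a nuclear receptor of type 2 innate lymphoid cells, at -0.90 (SE 0.30), Ikzf2, the Ikaros family member Helios, at -0.47 (SE 0.16), Zbtb16, the factor PLZF, at -0.52 (SE 0.20), Irf4 at -0.42 (SE 0.15) and Pou2af1 at -0.31 (SE 0.13). Ikzf2 fell in the first step (limma adjusted p = 0.0217), and Irf4 and Pou2af1 were near background in all 3 subsets.

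Homing and adhesion genes gave 4 above and 3 below of 28 at an unadjusted p under 0.05, against 1.15% and 1.85% of all genes. Above were Emb, Cxcr3, Itgax and Ccr2, a chemokine receptor for exit from bone marrow, at 10.76 and 10.85, then 10.95 and 11.10, then 10.09 and 9.91 (0.62, SE 0.13). Below were Cx3cr1, Cxcr6 and the integrin chain Itgav (-0.35, SE 0.15). Read by chemokine receptor, Cxcr6 was lower from CD27+CD11b+ on, Cxcr3 and Ccr2 fell in the second step and Cx3cr1 rose in it.

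NK cell surface receptors gave 1 above (Crtam) and 3 below of 35 at the same threshold. Over all genes 1.15% lay above and 1.85% below at that threshold, also the background of the granule, cytokine receptor and secreted factor counts. Beside Klrb1b and Cd200r1 the third below was Klra5, of the Ly49 family, at 9.14 and 8.63, then 8.33 and 8.56, then 9.42 and 9.58 (-0.75, SE 0.17). Ly49 genes are near-identical copies, so the probe set may read other members. Granule genes and death ligands gave Gzmk above and Tnfsf10, the death ligand TRAIL, below of 27, the latter at 7.64 ± 0.21, 6.58 ± 0.13 and 6.53 ± 0.19 (-0.50, SE 0.15). Cytokine and TNF family receptors gave the sorting marker Cd27 above and Tnfrsf25 below of 31.

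Secreted factors gave 2 in each direction of 20. Ltb and Tnfsf14, the ligand LIGHT (0.40, SE 0.15), were late falls, and Lta (-0.46, SE 0.18) and Il2 (-0.44, SE 0.14) lay below the midpoint but were near background in all 3 subsets.

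Markers of other innate lymphoid cells lay below the midpoint in 11 of 13 members, with a median of -0.18 (off -0.24, on -0.41, and -0.17 without CD27-CD11b+ replicate 1). Over all genes 44.0% lay above the midpoint. The median was -0.68 over the 8 members above background in at least 1 subset. A gene passes that filter by its highest subset, and Cd163l1 did so through CD27+CD11b- alone (7.96, against 5.86 and 5.77). The step from -0.18 to -0.68 may thus follow from the filter. At an unadjusted p under 0.05, 0 lay above and 6 below, against 1.15% and 1.85% of all genes. These were Tmem176b, Cd163l1, Rora, Arg1, an arginine-degrading enzyme of type 2 innate lymphoid cells (-0.85, SE 0.21, near background in all 3 subsets and -0.41 with 32 added to the linear values), Tmem176a and Zbtb16. Zbtb16 was not an early fall, since it was highest in CD27-CD11b+, at 7.01 ± 0.23 against 6.48 ± 0.29 and 6.23 ± 0.34. Whether these transcripts come from NK cells or from other cells inside the gate was not tested, and fewer cells of a type cannot be told apart from less RNA per cell in bulk samples.

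Markers of monocytes and macrophages lay above the midpoint in 23 of 23 members, against 44.0% of all genes, with a median of 0.43. Only Ccr2 and Hmox1 had an unadjusted p under 0.05, where 1.15% of all genes lay above and 1.85% below. The list's mean was 6.22 and 7.59 in the CD27+CD11b- arrays, 7.07 and 7.94 in CD27+CD11b+, and 7.76 and 6.89 in CD27-CD11b+. On each side of the array division the CD27+CD11b+ array was the highest of the 3, but the subsets overlapped widely. Csf1r, the receptor that defines the lineage, was 8.41 and 10.44, then 9.44 and 10.72, then 10.05 and 9.27, and C1qb, a complement subunit of tissue macrophages, 4.59 and 6.81, then 6.50 and 7.44, then 7.81 and 6.09. The median read 0.43 from the off arrays and 0.26 from the on arrays, and ranged from -0.05 without CD27+CD11b+ replicate 2 to 0.83 without CD27+CD11b- replicate 2, with 0.66 without CD27-CD11b+ replicate 1. Neutrophil markers lay above in 11 of 14, with a median of 0.22. The part of such cells in the peaks Itgax, Lgals3bp and Hmox1, in Ccr2 and in the interferon list was not tested.

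Mitosis genes lay above the midpoint in 27 of 31 members, against 44.0% of all genes, with a median of 0.25, and 0 had an unadjusted p under 0.05. Mki67, the proliferation marker, was 11.47 and 10.22, then 10.77 and 9.30, then 7.64 and 8.54, at 0.57 (SE 0.48). The off arrays carried the difference: the median was 0.58 from them and -0.01 from the on arrays, and it ranged from -0.39 without CD27+CD11b+ replicate 1 to 0.95 without CD27+CD11b+ replicate 2. DNA replication genes had a median of -0.09, with 0 of 30 at an unadjusted p under 0.05.

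Immediate early and heat shock genes, which respond within minutes to stimulation or cell handling, lay above the midpoint in 27 of 33, against 44.0% of all genes. Their median was 0.16 (0.11 on either side of the array division), with 0 at an unadjusted p under 0.05. The nuclear receptor Nr4a3 was highest among them at 0.91 and the chaperone Hspa1b lowest at -0.64. Their median ranged from -0.03 to 0.29 with 1 array left out, and the monocyte and macrophage markers moved in the same direction. Ribosome biogenesis genes gave 2 above and 0 below of 30 at an unadjusted p under 0.05, against 1.15% and 1.85% of all genes. These were Nop58 and Ncl, nucleolin (0.45, SE 0.15), and the list's median was 0.10. Of the other 3 Ncl probe sets above background 1 pointed the other way, at -0.14.

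The remaining function lists had at most 1 member at an unadjusted p under 0.05. Over all genes 1.15% lay above and 1.85% below at that threshold, and 44.0% had a positive difference. MHC class II genes lay above the midpoint in 8 of 12, and their median of 0.14 moved between -0.07 and 0.38 when single arrays were dropped. They gave 1 above, H2-Oa, an accessory chain for peptide loading (0.54, SE 0.21). Sterol synthesis gave 1 below of 21, Msmo1 (-0.40, SE 0.17), and activating receptor signalling 1 below of 28, Plcg1, a phospholipase of the proximal cascade, at 6.01 and 5.49, then 5.58 and 4.93, then 6.63 and 6.29 (-0.85, SE 0.23). Both Msmo1 and Plcg1 were near background in the CD27+CD11b- and CD27+CD11b+ subsets. Oxidative phosphorylation, glycolysis and apoptosis regulators gave 0 of 26, 16 and 17, with medians of -0.04, 0.01 and -0.004. Of the 26 oxidative phosphorylation genes 5 had a positive difference.

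**Figure D5:**
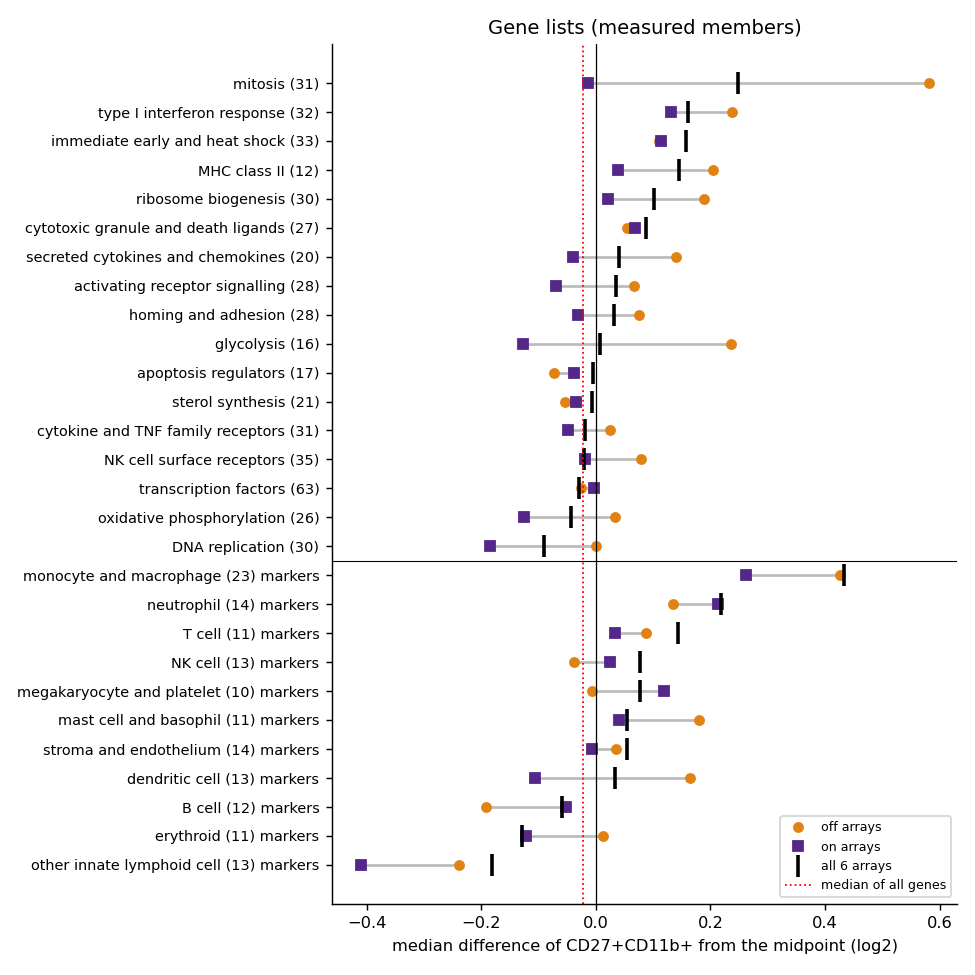
Median midpoint difference (x axis, log2) of each gene list, with the number of measured members, for all 6 arrays (bars) and within the off (circles) and on (squares) arrays; function lists are above the line and cell type markers below it. The red dotted line is the median of all genes, -0.02; the medians of mitosis genes differ most between the 2 sides of the array division.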

How the data were processed

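Values were the authors' deposited log2 expression values, 45101 probe sets on 6 arrays, made with RMA as the submitters' processing notes say, per the labels, with no version or chip definition named. The log2 scale was read from their range. RMA equalises distributions between arrays and compresses differences of dim genes. Scanner files were not used here.

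Left out were 64 control probe sets, 9160 with no symbol and 932 with several. The brightest probe set stood for each of 18193 genes. limma 3.58.1 (R 4.3.3) fitted 1 mean per subset over 6 arrays (3 residual degrees of freedom), with Benjamini-Hochberg adjustment over all genes and calls at adjusted p under 0.05. The scripts were tested on simulated data. The number of arrays limits the precision.

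Named genes were those called; in a direction with fewer than 10 calls, the first 10 by moderated statistic; the 12 peaks and 12 dips with the largest gap to the nearer outer mean whose CD27+CD11b+ arrays lay outside all others; the 12 largest early and 12 largest late switches at an unadjusted p under 0.01; the sorting markers; and list members at an unadjusted p under 0.05. Genes called in both steps, maturation genes and marker examples were added after values were seen. F8a, Ighm, Cd22, Ifi27l2a, Hdc, Gp9, Col1a2 and Pecam1, also named by the rule, had midpoint differences of 0.66, 0.38, -0.42, 0.31, 0.35, 0.35, -0.34 and 0.39. The other F8a probe set above background gave -0.04, and the other Ighm probe sets above background gave 0.51 and -0.14. Members and lists were chosen with earlier results of these data known. Replicate numbers did not pair the samples across all 3 subsets (correlation of deviations 0.62 between the CD27+ subsets, and -0.25 and -0.14 for the pairs with CD27-CD11b+).

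Alternatives were other feature sets, a filter on dim genes, 2 variance models, an offset, 2 scalings, 2 blocks and each array left out. Promoters came from RefSeq on GRCm38.p6.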

Additional observations from a re-analysis of the deposited data

How the results depend on the processing

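The count of genes above the midpoint was 0 and became 1, Myb, with only genes above background (limma adjusted p = 0.0487), with limma-trend (0.0297), with robust empirical Bayes (0.0225), after cyclic loess (0.0228) and with the array division as a block (0.0119). With the probe set of largest variance the limma adjusted p of Myb was 0.9998. The count below the midpoint was 1, Kcnj8, and became 0 over all named probe sets (adjusted p = 0.128), over all non-control probe sets (0.355), with the probe set of largest variance (0.135), with 32 added to the linear values (0.245), with the replicate number as a block (0.0569) and with each of the 6 arrays left out, a range of 0 to 0. The replicate block called 0 genes in either direction; at an unadjusted p under 0.05 it gave 720 and the fit without it 547, against 981 over all named and 1146 over all non-control probe sets, 300 among genes above background and 930 with the division block. Genes called between the outer subsets numbered 617, and 288 over all non-control probe sets, 398 with the probe set of largest variance, 367 with 32 added, 1480 with the division block and 84 to 635 with 1 array left out. Of the 112 named genes, 99 kept the sign of the midpoint difference with each array left out, and of the 89 named genes at an unadjusted p under 0.05, 89 did so, and 89 under the 3 other scalings. Genes chosen at that p-value on the same arrays seldom change sign, so the counts of 89 are no separate support. The median share of the outer difference reached at CD27+CD11b+ was 35.5% and ranged from 30.21% to 47.78% with 1 array left out. Genes with both CD27+CD11b+ arrays above all others numbered 134 and those below 421 among genes above background, and 1037 and 1420 over all named probe sets. With 2 arrays a subset and 3 residual degrees of freedom, a midpoint difference had to be large to pass, and genes near background have compressed differences.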
